A study of Mus musculus with 18 samples.

Results

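Nr4a1, Nr4a2 and Nr4a3, the 3 genes of the NR4A family, were followed in sorted mouse macrophages, and are 3 of the 24732 features in the expression tables. They were chosen by name, with the steady-state alveolar values of the mutant known, so those values are given below as a description, with no test. NR4A proteins are nuclear receptors called orphans because no hormone is established as their ligand, and their activity is set mainly by how much of them is made. All 3 are immediate early genes, switched on within minutes of a stimulus through transcription factors such as CREB and MEF2, with no need for new protein. In mouse, Nr4a1 is known for its role in Ly6C-low monocytes, and NR4A proteins in macrophages are known as brakes on inflammatory genes.

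RNA was sequenced from macrophages of C57BL/6 wild-type mice (WT, Bhlhe40+/+ Bhlhe41+/+) and of double knockout mice (DKO, Bhlhe40-/- Bhlhe41-/-), which lack a pair of related repressors of transcription. There were 6 groups of 2 libraries: WT and DKO alveolar macrophages of unmanipulated mice (steady state), WT and DKO alveolar macrophages from mixed bone marrow chimeras, and WT and DKO peritoneal macrophages. In the chimeras, WT cells carry CD45.1 and DKO cells CD45.2, so the alleles of this marker differ with genotype there. Alveolar cells were sorted from digested lungs as CD11c+ SiglecF+ CD11b low cells and peritoneal cells from lavage as CD11b+ F4/80+ MHCII intermediate Tim4+ cells, so tissue and isolation route cannot be told apart. Ages, pooling of animals and separate cultures or donors are not given in the labels, so p-values measure only the spread between these libraries.

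Between 6594712 and 29338242 reads were assigned to features per library, and the DKO chimera replicate 1 was the shallowest, with the most features above 0 (16173, against 14418 to 15761 elsewhere). Bhlhe40 was at 213 to 940 TPM (a level per transcript length, scaled to the same total in each library) in WT libraries and at 65.7 to 243 in DKO libraries of all populations. Within each population both DKO libraries were below both WT libraries. Bhlhe41 was at 1.90 to 100 TPM in WT and 75.4 to 156 in DKO libraries. For Bhlhe41 both DKO libraries were above both WT libraries within each population, at 75.4 and 83.2 against 3.68 and 1.90 TPM in the peritoneum. A gene-level TPM takes in transcript outside the deleted part, so neither value checks the genotype. Summed alveolar macrophage markers were 11091 to 19926 TPM in alveolar libraries and 6.14 to 11.99 in peritoneal ones, and summed peritoneal markers 11518 to 14890 TPM in peritoneal and 4.69 to 32.7 in alveolar libraries.

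The stretches before the 3 annotated starts are shown because the family's induction runs through CREB, which binds the cAMP response element TGACGTCA and its core TGACG. The RefSeq sequences (GRCm38.p6) of the 250 bases before each start are printed 5′ to 3′ on the strand of the gene, at chr15:101266596-101266845 on the plus strand for Nr4a1, chr2:57124004-57124253 on the minus strand for Nr4a2 and chr4:48045055-48045304 on the plus strand for Nr4a3. Capitals mark the core TGACG, or CGTCA where it lies on the other strand.
Nr4a1: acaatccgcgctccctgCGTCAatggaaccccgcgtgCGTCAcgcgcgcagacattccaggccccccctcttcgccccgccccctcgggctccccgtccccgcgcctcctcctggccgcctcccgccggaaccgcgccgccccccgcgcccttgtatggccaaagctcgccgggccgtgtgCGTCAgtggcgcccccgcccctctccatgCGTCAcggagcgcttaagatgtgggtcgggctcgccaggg
Nr4a2: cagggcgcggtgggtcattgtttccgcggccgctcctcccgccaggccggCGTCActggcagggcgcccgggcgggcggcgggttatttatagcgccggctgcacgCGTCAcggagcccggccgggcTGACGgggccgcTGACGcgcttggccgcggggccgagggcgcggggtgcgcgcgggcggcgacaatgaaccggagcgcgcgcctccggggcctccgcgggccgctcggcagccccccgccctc
Nr4a3: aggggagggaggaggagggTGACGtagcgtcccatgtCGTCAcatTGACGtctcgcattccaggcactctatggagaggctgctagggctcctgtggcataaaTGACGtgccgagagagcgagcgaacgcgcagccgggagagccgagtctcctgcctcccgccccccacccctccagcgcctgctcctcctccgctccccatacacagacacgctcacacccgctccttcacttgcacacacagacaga

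Each of the 3 stretches held 4 cores, on both strands counted together, without overlap between them. Of 32851 mouse promoters of the same length, 17.8% held at least 1 core and 0.137% held 4 or more. The core holds a CG step, and the 3 stretches were 74.4%, 80.0% and 63.6% G or C against a median of 52.4%. Among the 6582 promoters with at least 63.6% G or C, 28.0% held a core and 0.38% held 4 or more. The full element TGACGTCA (1.55% of promoters), the E-box CACGTG that BHLHE proteins bind (6.02%) and AAAGGTCA, the element bound by NR4A proteins themselves (1.34%), had no match on either strand in the 3 stretches. A match is a description of letters, not a bound site.

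**Figure D1:**
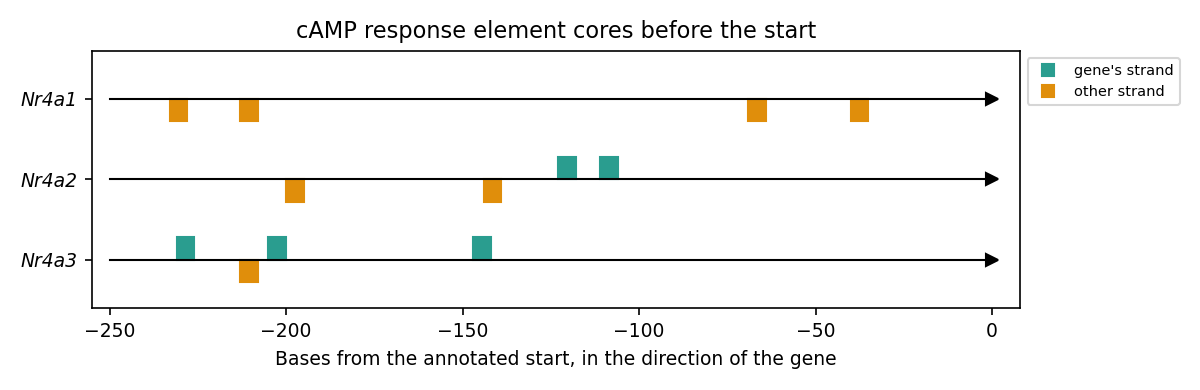
Positions of the TGACG cores (boxes) in the 250 bases before the annotated start of each Nr4a gene, in bases from the start on the x axis; boxes above the line lie on the strand of the gene and boxes below on the other strand. Each gene has 4 cores, all on the other strand in Nr4a1.

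Nr4a1 was among the most abundant transcripts of WT alveolar macrophages and a minor one in the peritoneum. Its level was 1741 and 1965 TPM in the steady-state WT libraries and 1840 and 2007 TPM in the WT chimera libraries, which overlap. In DKO alveolar cells it was 969 and 963 TPM in the chimeras and 551 and 107 TPM in the steady state. Peritoneal macrophages had 16.2 and 21.5 TPM in WT and 37.4 and 86.9 TPM in DKO. In every DKO alveolar library Nr4a1 was thus below every WT alveolar library, and in both DKO peritoneal libraries above both WT ones. Within a population, both DKO libraries lay below both WT libraries in 57.2% of features in the steady state and 30.6% in the chimeras. In the peritoneum both lay above in 20.4%. Ranked by TPM within a library, Nr4a1 stood between position 43 and 57 in the 4 WT alveolar libraries, at 133 and 138 in DKO chimera cells, at 255 and 1522 in DKO steady-state cells and at 1698 to 6260 in the peritoneum.

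Nr4a2 was the lowest of the 3 in alveolar cells of WT mice. Its levels there were 149 and 177 TPM in the steady state and 137 and 160 TPM in the chimeras, again overlapping. DKO chimera cells had 92.0 and 113 TPM, and DKO steady-state cells 80.8 and 13.98 TPM. In the peritoneum Nr4a2 was at 1.39 and 0.857 TPM in WT, from 59 and 29 reads, and at 2.66 and 3.05 TPM in DKO, from 96 and 107 reads. The groups of each genotype pair did not overlap in any of the 3 populations, as in 57.2% (steady state, DKO lower), 30.6% (chimeras, DKO lower) and 20.4% (peritoneum, DKO higher) of features. Alveolar libraries of WT mice had 11.1 to 13.4 times as much Nr4a1 as Nr4a2 on the TPM scale, and those of DKO mice 6.82 to 10.5 times.

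Nr4a3 had the widest span. WT alveolar libraries had 436 and 538 TPM in the steady state and 561 and 623 TPM in the chimeras, and the 2 groups did not overlap. DKO libraries had 316 and 330 TPM in the chimeras, and 108 and 9.31 TPM in the steady state. In peritoneal libraries it was close to the detection limit, at 0.209 and 0.157 TPM in WT, from 5 and 3 reads, and at 1.38 and 0.760 TPM in DKO, from 28 and 15 reads. Only the DKO peritoneal replicate 1 reached 1 TPM among the peritoneal libraries.

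By group means, the order was alike for the 3 genes: WT alveolar cells highest, then DKO chimera, DKO steady-state, DKO peritoneal and WT peritoneal cells. Nr4a1 had 1924 ± 118 TPM in WT chimera and 1853 ± 158 in WT steady-state cells (SD, n = 2 each), then 966 ± 4.32, 329 ± 314, 62.1 ± 35.0 and 18.9 ± 3.77 TPM down the order. Nr4a2 had 163 ± 19.8 TPM in WT steady-state and 149 ± 16.3 in WT chimera cells (SD, n = 2 each), then 103 ± 14.9, 47.4 ± 47.2, 2.86 ± 0.276 and 1.12 ± 0.376 TPM. Nr4a3 had 592 ± 43.6 TPM in WT chimera and 487 ± 72.6 in WT steady-state cells (SD, n = 2 each), then 323 ± 10.2, 58.5 ± 69.5, 1.07 ± 0.438 and 0.183 ± 0.0364 TPM. The means of both WT alveolar groups differed by less than the sum of their SDs for each gene. DKO steady-state cells had an SD about as large as the mean for each gene.

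**Figure D2:**
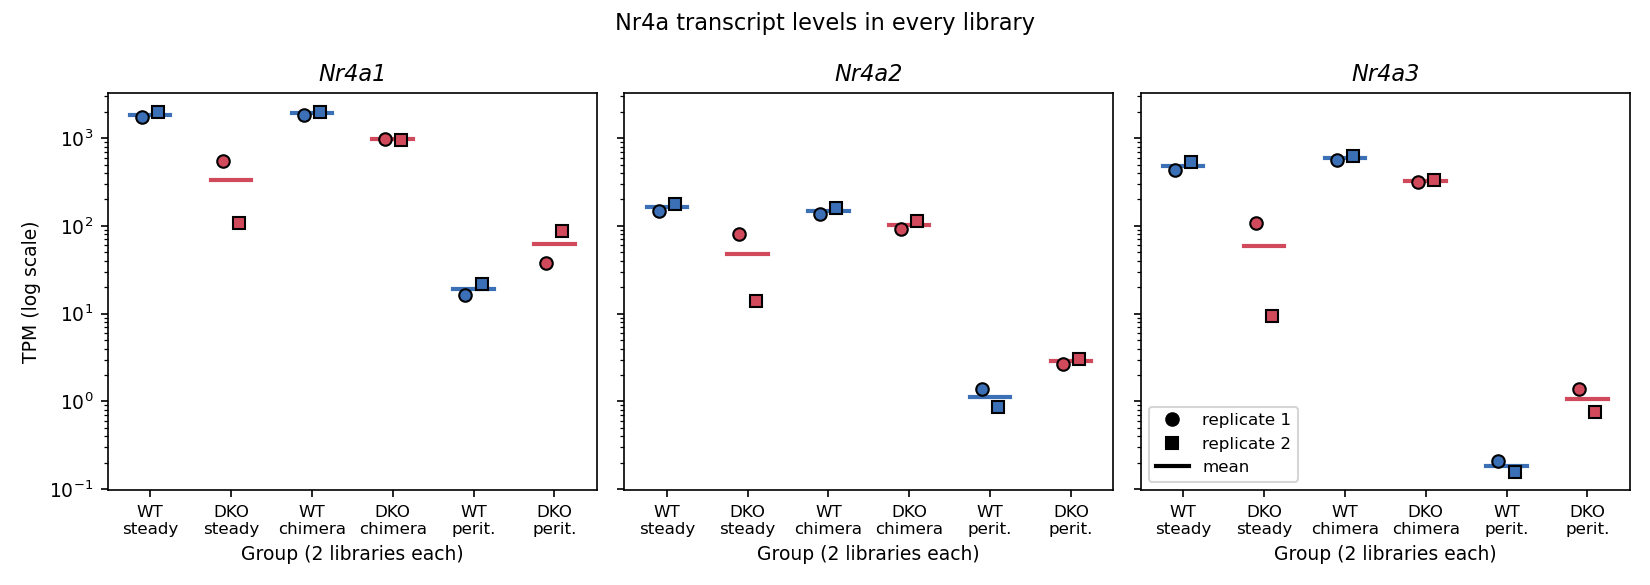
TPM of Nr4a1, Nr4a2 and Nr4a3 in each of the 12 libraries (points, log axis) by population and genotype, with a line at the mean of 2 libraries. The 2 DKO steady-state points lie far apart for each gene, at 551 and 107 TPM for Nr4a1, and the peritoneal points lie below all alveolar ones.

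Against the other receptors, Nr4a1 stood out by abundance. Of 49 nuclear receptor genes, it had the highest mean TPM in all 4 alveolar groups, and Nr4a3 was the next in all but the steady-state DKO group, where it stood at place 10. Nr4a2 took places 6, 12, 6 and 7 in WT steady-state, DKO steady-state, WT chimera and DKO chimera cells. In the peritoneum Nr4a1 was at place 14 in WT and 7 in DKO, and the highest receptor was Nr1d1, a circadian repressor, with 196 and 234 TPM. Nr4a1 made up 68.5% to 82.1% of the family's TPM in alveolar libraries and 90.3% to 95.8% in peritoneal ones. Levels are compared between genes here on the TPM scale, which is per length.

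In the steady-state alveolar comparison, from which the genes were picked, DKO means were 5.63-fold lower for Nr4a1, 3.45-fold lower for Nr4a2 and 8.33-fold lower for Nr4a3. On the log2(TPM + 1) scale the differences were -2.92 ± 0.61, -2.23 ± 0.57 and -3.86 ± 0.78 (SE). These sizes hang on which DKO library is used. With only the DKO replicate 2 they were -4.10, -3.45 and -5.56, and with only the DKO replicate 1 they were -1.74, -1.0 and -2.16. Across all features tested, 51.5% passed in this comparison, and in 57.2% both DKO libraries lay below both WT libraries. The authors' deposited table gives log2 fold changes of -1.05, -0.78 and -1.09 here, and its p-values are not used because the genes were picked from this contrast. These fold changes come from the authors' own comparison and not from log2(TPM + 1). Their sizes are therefore not directly comparable with those above, and the same goes for the authors' fold changes in the other populations. In the authors' deposited table the dispersions of the 3 genes, a score of the spread between replicates, are 0.612, 0.544 and 0.804. The median is 0.00478 over 3619 features with a mean normalized count of at least 1000. For the chimeras the dispersions of the authors' deposited table are 0.0020, 0.0099 and 0.0032. They lie above those of 3.02%, 90.1% and 25.8% of the features with such counts there. Those of the peritoneal comparison in the authors' deposited table are 0.0881, 0.0281 and 0.122. For Nr4a1 this is above 99.9% of the features with such counts there. Nr4a2 and Nr4a3 had only 29 to 107 and 3 to 28 reads per peritoneal library. A rank among features with such counts is therefore not given for these genes. In bulk RNA, fewer expressing cells and less RNA per cell cannot be told apart.

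The 2 DKO steady-state libraries were far apart for the Nr4a genes. Replicate 1 exceeded replicate 2 by 5.17-fold in TPM for Nr4a1, 5.78-fold for Nr4a2 and 11.6-fold for Nr4a3, while the higher and lower library of the other alveolar groups differed by 1.01 to 1.24-fold. The DKO peritoneal pair was uneven for Nr4a1, with replicate 2 at 2.32-fold the level of replicate 1, a gap larger than that of 99.2% of features. On the log2(TPM + 1) scale the gaps of the DKO steady-state pair were 2.36, 2.45 and 3.40. In that pair they were larger than those of 99.8%, 99.9% and 100% of the 12303 features tested, whose median absolute gap was 0.16. Other immediate early genes leaned the same way: of 43 tested, 11 were at least 2-fold higher in replicate 1 and 0 in replicate 2, with a median gap of 0.66 against 0.08 over all features. Across all features 1.26% and 1% passed that fold in either direction. The next largest were Csrnp1, a nuclear protein of the same early class, at 1.65, and Fosb, a subunit of the AP-1 factor, at 1.55.

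Other gene groups did not go with this gap in the same way. The inducible heat shock genes Hspa1a and Hspa1b were higher in replicate 2, at 0.99 and 14.5 TPM and at 0.845 and 13.0 TPM, and the median gap of 11 heat shock chaperones was -0.11. Summed neutrophil markers were 80.1 to 104 TPM in DKO steady-state libraries against 17.9 to 20.1 in WT, with 4 of 5 markers in the tables, 1 of them above 1 TPM, and Ngp at 0 in WT. Lung epithelial markers summed to 175 to 190 TPM against 82.9 to 131 TPM. Their part in the results was not tested.

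**Figure D3:**
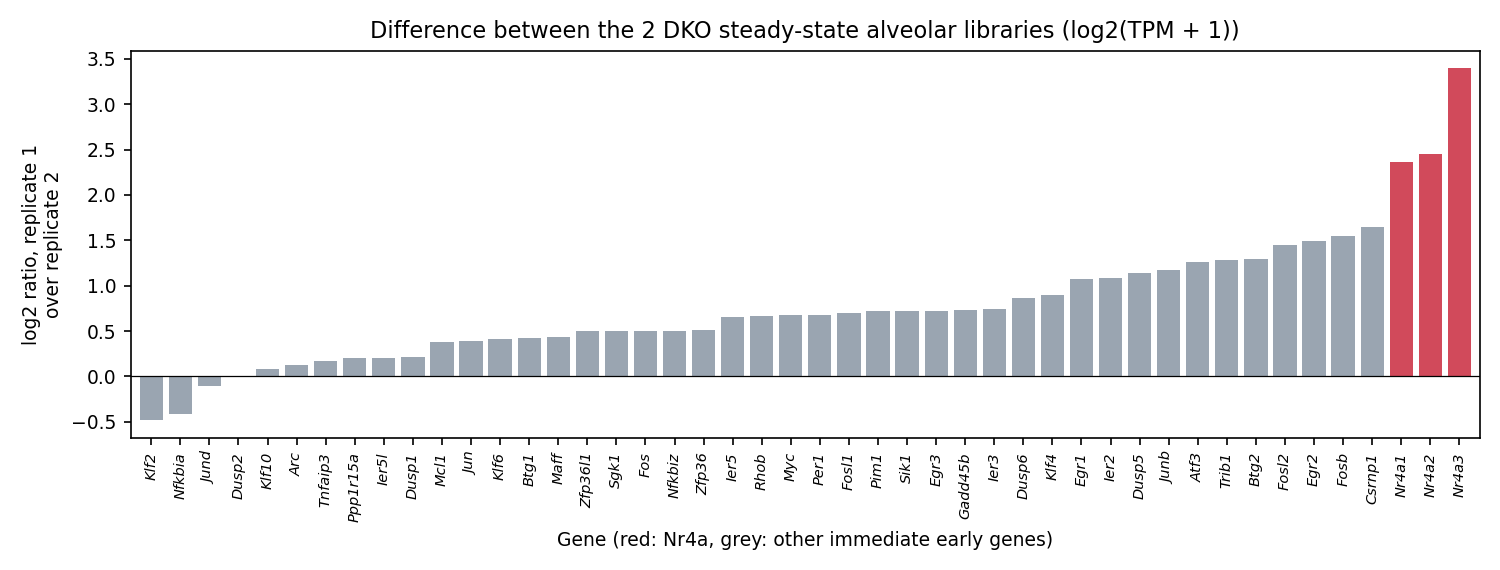
Difference between the 2 DKO steady-state libraries, as log2 of replicate 1 over replicate 2 on the log2(TPM + 1) scale, for the Nr4a genes (red bars) and 43 other immediate early genes (grey bars). The Nr4a genes lie at 2.36, 2.45 and 3.40, above every other gene shown, the next being Csrnp1 at 1.65.

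In mixed chimeras alveolar macrophages of both genotypes arise from transplanted marrow. There DKO cells had lower levels of all 3 genes in every library. Mean TPM was 1.99-fold lower for Nr4a1, 1.45-fold lower for Nr4a2 and 1.83-fold lower for Nr4a3. Non-overlap of this kind, with DKO lower, was seen in 30.6% of features. The test across all genes was limma on log2(TPM + 1), fitted to all 12 libraries, with Benjamini-Hochberg adjustment. It gave log2 differences of -0.99 ± 0.61 (adjusted p = 0.265, 95% interval -2.35 to 0.37) for Nr4a1, -0.53 ± 0.57 (adjusted p = 0.541, -1.82 to 0.75) for Nr4a2 and -0.87 ± 0.78 (adjusted p = 0.457, -2.62 to 0.88) for Nr4a3. By limma 0 of 3 passed an adjusted p of 0.05, and 0 of 3 had an unadjusted p under 0.05, against 27.3% of all features past the adjusted threshold. That fit estimates the spread of each gene over all groups, the uneven DKO steady-state pair included.

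When the fit held only the 4 chimera libraries, the same differences had SEs of 0.08, 0.13 and 0.08 and adjusted p-values of 0.00161, 0.0357 and 0.00219 by limma for Nr4a1, Nr4a2 and Nr4a3. All 3 then passed, against 10.6% of features that were lower and passed. Fitted to the 8 chimera and peritoneal libraries, a choice made after seeing the data, the adjusted limma p-values were 0.0559, 0.0358 and 0.00311, against 14.5% of features lower and passing. In the authors' deposited table the log2 fold changes for the chimeras are -1.01, -0.54 and -0.89, with adjusted p-values of 4.81e-52, 0.00146 and 1.52e-24. Leaving out either DKO steady-state library, which is no part of the contrast, gave adjusted p-values of 0.0391, 0.0285 and 0.00243, or 0.0391, 0.0280 and 0.00238. Over all alternatives the adjusted p ranged from 0.00161 to 0.457 for Nr4a1, 0.0280 to 0.779 for Nr4a2 and 0.00219 to 0.638 for Nr4a3. Chimera sums were 12.9 to 19.1 TPM in DKO and 21.3 to 21.5 TPM in WT cells for neutrophil markers, and 38.3 to 57.6 against 102 to 128 TPM for lung epithelial ones. Dendritic cell markers summed to 3.596 to 7.01 TPM in DKO and 0.512 to 0.819 in WT chimera cells, with 3 of 3 in the tables and Flt3 at 0 in WT. Peritoneal macrophage markers summed to 17.6 to 22.6 against 4.69 to 5.35 TPM, with Alox15 at 0 in WT. Of 11 heat shock chaperones 2 were lower in DKO chimera cells and 0 higher by limma, also 0 at an unadjusted p under 0.05, against 13.6% and 13.7% of all features. The part of these values in the result was not tested.

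In peritoneal macrophages the values lay the other way round. DKO libraries had 3.30-fold the mean TPM of WT libraries for Nr4a1, 2.55-fold for Nr4a2 and 5.84-fold for Nr4a3, and for each both DKO libraries were above both WT libraries, as in 20.4% of features. By reads, the DKO to WT ratio was 3.38 (95% interval 3.16 to 3.63) for Nr4a1, 2.52 (1.95 to 3.27) for Nr4a2 and 5.86 (2.72 to 14.4) for Nr4a3, whose ratio rests on 43 and 8 reads. These intervals cover counting error only. The added 1 in log2(TPM + 1) shrinks differences between values this low, and on that scale they were 1.56 ± 0.61, 0.87 ± 0.57 and 0.79 ± 0.78, and the adjusted p-values by limma were 0.0961, 0.322 and 0.534. By limma 0 of 3 passed, against 22.9% of features in either direction and 6.8% that were higher, and 1 of the 3, Nr4a1, had an unadjusted limma p under 0.05 (0.0285).

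Fitted to the 4 peritoneal libraries alone, Nr4a1 and Nr4a2 passed with adjusted p-values of 0.0317 and 0.0187 by limma, against 8.79% of features, and Nr4a3 did not enter because a single library reached 1 TPM. Fitted to the same 8 libraries as above, the 3 adjusted limma p-values were 0.0130, 0.00704 and 0.00632, against 7.41% of features. Nr4a3 met the filter in that fit, and in the fit to 12 libraries, only through its alveolar libraries. Its peritoneal value is therefore not counted as a pass. The authors' deposited table gives log2 fold changes of 1.34, 1.23 and 1.33, with adjusted p-values of 0.000187, 1.73e-05 and 0.00138. For Nr4a1 the size depends on the DKO library: 0.97 without the DKO replicate 2 and 2.16 without the DKO replicate 1. Over all alternatives the adjusted p ranged from 0.00703 to 0.423 for Nr4a1, 0.00419 to 0.647 for Nr4a2 and 0.00490 to 0.806 for Nr4a3. Of 11 heat shock chaperones 6 were higher in DKO peritoneal cells and 0 lower by limma over 12 libraries, against 6.8% and 16.1% of features, and 0 were lower at an unadjusted p under 0.05. Between the DKO peritoneal libraries their median log2 gap, replicate 1 over replicate 2, was 0.59, against -0.05 over all features. The gaps of Nr4a1, Nr4a2 and Nr4a3 were -1.19, -0.15 and 0.43, so Nr4a1 lay the other way. Summed markers of Ly6C-low monocytes, cells that need Nr4a1 in mouse, were also higher, at 146 to 152 TPM in DKO and 96.0 to 124 TPM in WT peritoneal libraries. Of these markers 5 of 7 were above 1 TPM there. In the chimeras, where the Nr4a genes were lower in DKO, these markers summed to 760 to 794 TPM in DKO and 701 to 713 TPM in WT. In the steady state the sums overlapped, at 828 to 862 TPM in DKO and 861 to 868 TPM in WT. The part of the heat shock and monocyte values in the result was not tested.

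The difference between the genotype effects, chimera alveolar minus peritoneal, was -2.55 ± 0.86 for Nr4a1 (adjusted p = 0.0706), -1.41 ± 0.81 for Nr4a2 (adjusted p = 0.273) and -1.66 ± 1.10 for Nr4a3 (adjusted p = 0.344) by limma over 12 libraries. By that fit 0 of 3 passed, and 1 of 3, Nr4a1, had an unadjusted limma p under 0.05 (0.0145), while 17% of features passed. Being lower in both DKO chimera libraries and higher in both DKO peritoneal libraries was a pattern of 3.29% of features, or 405 of 12303. Fitted to the 8 libraries of the 4 groups, the 3 differences had adjusted p-values of 0.00863, 0.00448 and 0.00126 by limma. Lower and passing were 5.44% of features. Nr4a3 met the filter in both fits only through its alveolar libraries, so its difference is not counted as a pass. Over all alternatives the range was 0.00419 to 0.210 for Nr4a1, 0.00248 to 0.480 for Nr4a2 and 0.000755 to 0.544 for Nr4a3. After rescaling of libraries by the median of ratios, Nr4a1 was at -2.71 with an adjusted limma p of 0.0495. Heat shock chaperones lay the same way, with 5 of 11 lower and 0 higher by limma, against 5.06% and 12% of features, a median of -0.77 against 0.10, and 0 higher at an unadjusted p under 0.05. After rescaling 7 of 11 were lower, and their part was not tested. Between the DKO peritoneal libraries their median gap and the gap of Nr4a1 had opposite signs, as given above.

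**Figure D4:**
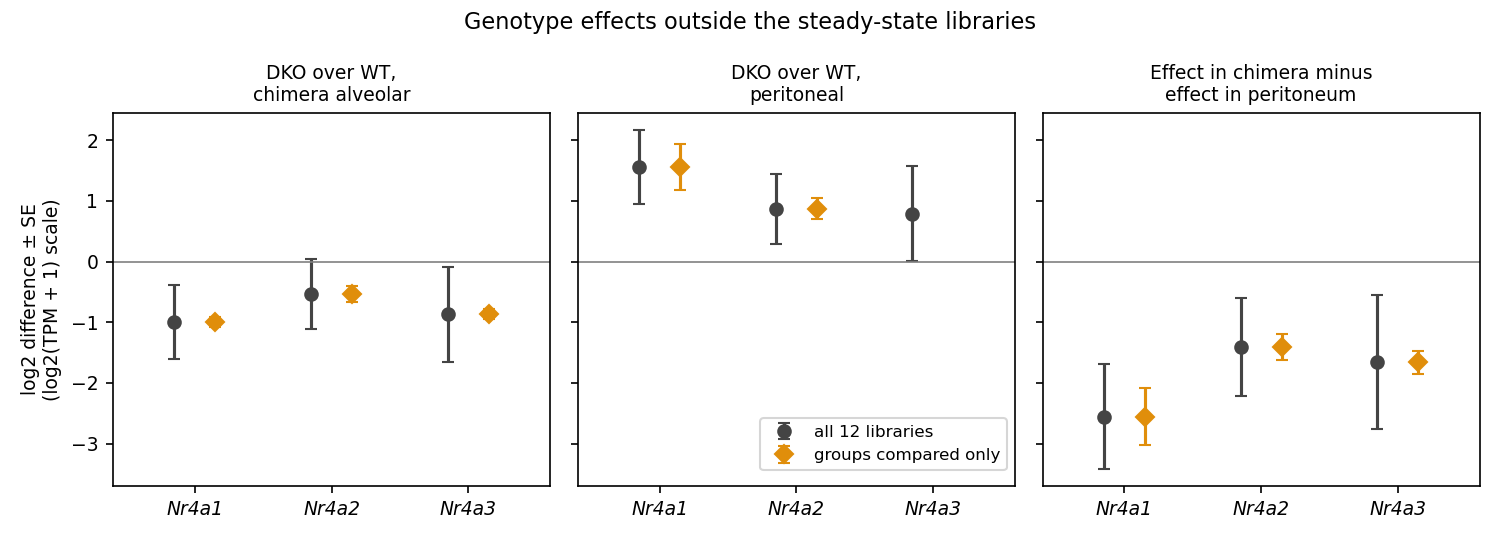
DKO over WT log2 differences of the Nr4a genes (points, with bars of ± SE) in chimera alveolar and peritoneal cells, and the difference of these effects, on the log2(TPM + 1) scale, by the fit to all 12 libraries and by the fit to the groups compared. Each gene lies below 0 in chimera cells and above 0 in peritoneal cells, for example at -0.99 and 1.56 for Nr4a1, and the bars are shorter in the second fit; Nr4a3 has no peritoneal value there.

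The widest differences of the family lay between alveolar and peritoneal cells. The alveolar cells of this contrast came from transplanted chimeras and the peritoneal cells are not labelled as such. Tissue and isolation route cannot be told apart, and transplantation differs with them in this contrast. Alveolar libraries of unmanipulated mice were also above all peritoneal ones for each gene. For Nr4a1 in WT they had 1741 and 1965 TPM, against 16.2 and 21.5 TPM in the peritoneum. In WT chimera alveolar against WT peritoneal libraries, log2 differences were 6.61 ± 0.61 for Nr4a1 (adjusted p = 4.60e-06), 6.15 ± 0.57 for Nr4a2 (adjusted p = 5.09e-06) and 8.97 ± 0.78 for Nr4a3 (adjusted p = 2.99e-06) by limma. In DKO cells they were 4.06 ± 0.61 (adjusted p = 0.000183), 4.74 ± 0.57 (adjusted p = 3.80e-05) and 7.31 ± 0.78 (adjusted p = 1.51e-05) in the same order. Nr4a1 and Nr4a2 passed in both genotypes. Nr4a3 met the filter only through its alveolar libraries, so its p-values here are not counted as passes. In WT 69.2% of features and in DKO 69.5% passed in either direction. Higher in alveolar cells and passing were 33.3% and 38.1% of all features. As ratios of mean TPM the alveolar level was 102, 133 and 3233 times the peritoneal one in WT. In DKO it was 15.5, 35.9 and 302 times. For Nr4a3 the peritoneal side of these ratios rests on 8 reads in WT and 43 in DKO. By reads, the Nr4a3 ratio was 3441 (1746 to 7972) in WT and 304 (225 to 420) in DKO. These ranges cover counting error only, as for the read ratios given above. The added 1 in log2(TPM + 1) shrinks the Nr4a3 log2 differences, so they lie below what these ratios give. Without single libraries the WT differences ran from 6.42 to 6.81 for Nr4a1, 5.97 to 6.33 for Nr4a2 and 8.89 to 9.04 for Nr4a3. Those in DKO ran from 3.46 to 4.65, 4.59 to 4.89 and 7.09 to 7.52. Of 43 other immediate early genes, 35 were higher and 5 lower in WT alveolar than WT peritoneal cells, against 33.3% and 35.9% of features, and 32 and 4 in DKO cells, against 38.1% and 31.4%. Fosb (9.73 ± 0.39) and Dusp5 (7.99 ± 0.29), a nuclear phosphatase of MAP kinases, had the largest changes of these in WT. The Ly6C-low monocyte markers summed to 701 to 868 TPM in alveolar libraries, far above the peritoneal sums given above, with 7 of 7 in the tables, and their part in these differences was not tested. The tissue contrasts share libraries with the genotype comparisons.

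Other immediate early genes, a list of 47 of which 43 were tested, were examined for the direction of the family. In the chimeras 13 rose in DKO cells and 2 fell, Maff and Fosl1, against 13.7% and 13.6% of all features, and the median was 0.32 against 0.01. Ier3, a stress response gene, had 1089 and 921 TPM in DKO against 207 and 185 TPM in WT, a log2 change of 2.35 ± 0.22 with an adjusted limma p of 4.96e-05. Gadd45b, a growth arrest gene, rose by 1.71 ± 0.23. Egr3, an early zinc finger factor, had a log2 difference of -1.01 ± 0.36 with an adjusted limma p of 0.066. In these chimera cells all 3 Nr4a estimates were below 0, while the median of the early genes was above it.

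In the peritoneum 18 of 43 rose in DKO cells and 0 fell, against 6.8% and 16.1% of features, with a median of 0.49 against -0.09. At an unadjusted limma p under 0.05, 1 of 43 was lower. Fos, a founding member of AP-1, had 141 and 139 TPM in DKO against 16.1 and 13.98 TPM in WT, a log2 change of 3.14 ± 0.15 with an adjusted limma p of 2.08e-06. Dusp1, a phosphatase of MAP kinases, rose by 2.44 ± 0.26 and Fosb by 2.42 ± 0.39. In the difference of the genotype effects 6 of 43 were lower and 2 higher, against 5.06% and 12% of features, and Fosb (-2.85), Fos (-2.31) and Dusp1 (-1.95) were the largest of the lower ones.

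**Figure D5:**
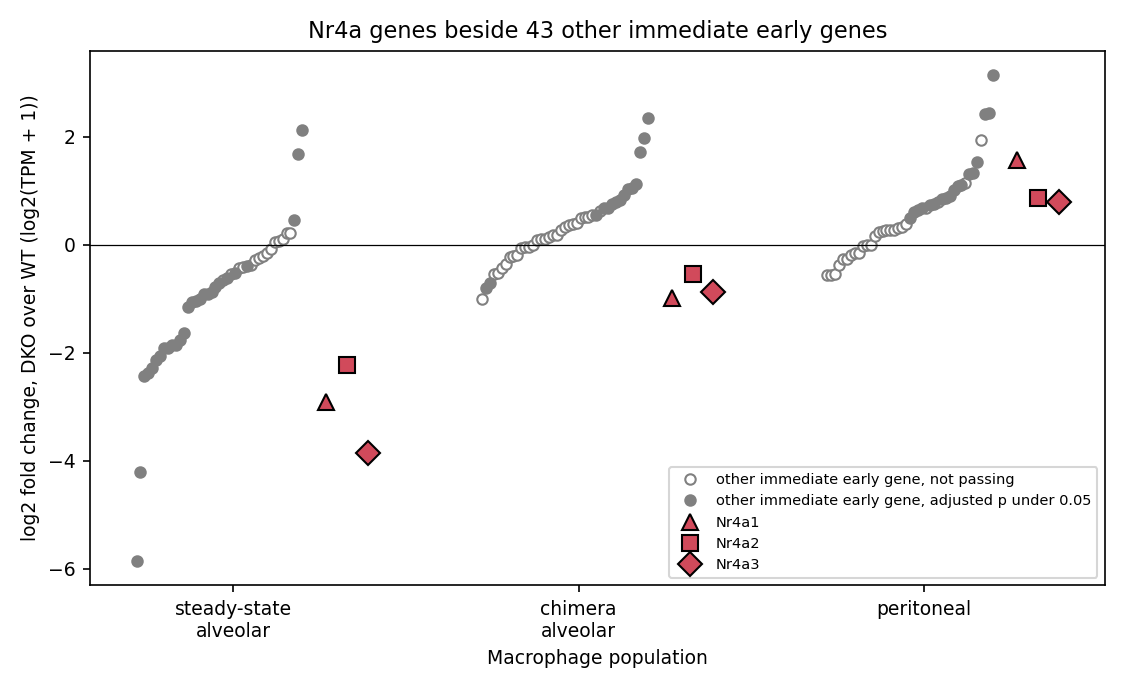
DKO over WT log2 fold changes on the log2(TPM + 1) scale for 43 other immediate early genes (circles, filled where the adjusted p is under 0.05) and the Nr4a genes (red) in each population. In the chimeras 13 filled circles lie above 0 while the Nr4a genes lie below it.

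In the steady state 25 of 43 early genes were lower in DKO and 3 higher, against 39.4% and 12.2% of features, with a median of -0.71 against -0.22. After rescaling of libraries by the median of ratios, which moved the median of all features by 0.22, 20 were lower and 5 higher. Egr3 had 70.3 and 106 TPM in WT and 0.932 and 0.169 TPM in DKO, and Egr1, a zinc finger factor of the same early class, 690 and 744 against 55.3 and 25.8 TPM. Egr1 fell by 4.21 ± 0.72 on the log2 scale. Fos fell less, with 1726 and 1655 TPM in WT against 1518 and 1074 TPM in DKO. Its log2 difference was -0.40 ± 0.15 with an adjusted limma p of 0.048, so it is among the 25 lower genes. Of 11 heat shock chaperones 7 were lower in DKO and 0 higher by limma, also 0 at an unadjusted p under 0.05, and after rescaling 3 were lower. These values and the neutrophil and lung epithelial marker sums given above moved with this comparison, and their part was not tested.

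Regulators and partners of the family, 39 genes, gave 8 higher and 4 lower in DKO chimera cells, against 13.7% and 13.6% of all features. In peritoneal cells 3 were higher and 3 lower, against 6.8% and 16.1%, and after rescaling 12 and 2. In the steady state 3 were higher and 20 lower, against 12.2% and 39.4%, and after rescaling 8 and 10. No direction of this list is given, since the split in peritoneal and steady-state cells moves with the scaling. Mef2a, a MEF2 factor that can drive Nr4a1, had 128 and 132 TPM in DKO chimera cells and 76.5 and 69.7 TPM in WT, and rose by 0.82 ± 0.07. Mef2c, another MEF2 factor, rose by 1.22 ± 0.12 there. Nfatc2, a calcium-regulated factor, rose by 2.90 ± 0.18 in DKO peritoneal cells, from 1.15 and 0.533 TPM to 11.6 and 13.5 TPM. Crem, a member of the CREB family, was at 12.4 and 13.8 TPM in WT and 10.1 and 2.89 TPM in DKO steady-state cells. Rxra, the heterodimer partner of Nr4a1 and Nr4a2, was at 302 and 296 TPM in WT chimera and 252 and 247 TPM in DKO chimera cells, and fell by 0.26 ± 0.07.

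Among the other nuclear receptors 25 of 46 were tested, with 4 higher and 3 lower in DKO chimera cells, against 13.7% and 13.6% of all features, shares close to those of the list. In DKO peritoneal cells 3 were higher and 0 lower by limma, against 6.8% and 16.1% of features, and 0 were lower at an unadjusted p under 0.05. After rescaling 6 were higher there. The 3 peritoneal ones were Pparg, a lipid-sensing receptor typical of alveolar macrophages, at 1.79 ± 0.15, Nr1h3, the oxysterol receptor, at 1.41 ± 0.14, and Rarg, a retinoic acid receptor, at 0.37 ± 0.08. Alveolar cells of WT chimeras had Pparg higher by 6.28 ± 0.15 and Vdr, the vitamin D receptor, by 5.51 ± 0.11 than WT peritoneal cells. A retinoic acid receptor, Rarb, went the other way at -4.51 ± 0.21.

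The 5 features most like each member were taken by Pearson's r of log2(TPM + 1) over the 12 libraries, which fall into 2 tissues, so the points share tissue and isolation route. For Nr4a1 they were Cnnm4, Mkln1, Nr4a2, Dgat2 and Nfe2l2, at 0.987 to 0.984, for Nr4a2 Nr4a3, Gm6377, Skap2, Hnrnph2 and Slc25a25, at 0.993 to 0.991, and for Nr4a3 Csrnp1, Nr4a2, Lta4h, Slc25a25 and Ugcg, at 0.995 to 0.991. As many as 866, 1423 and 1248 features had r above 0.9 with the 3 genes. Among the members r was 0.985 for Nr4a1 with Nr4a2, 0.984 for Nr4a1 with Nr4a3 and 0.993 for Nr4a2 with Nr4a3. Within the 8 alveolar libraries, a choice made after seeing the data, Slc25a25, a mitochondrial ATP-magnesium carrier, had r of 0.997 with Nr4a1. There 594, 290 and 483 features had r above 0.9 with Nr4a1, Nr4a2 and Nr4a3. These libraries include the steady-state ones, from which the genes were picked, with their uneven DKO pair.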

How the data were processed

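Bulk RNA-seq of 12 libraries (6 groups of 2) was analysed; 6 ChIP-seq samples of the series were not analysed here. The deposited tables give TPM per feature, made by the authors, and the authors' own comparison columns: mean normalized counts (a signal), log2 fold changes, adjusted p-values and dispersions (a score). The tools named, per the submitters' processing notes and with no role for any, are TopHat 1.4.1, the aligners Bowtie2 and Bowtie 1.0.0, DESeq2 1.2.10 and HTSeq 0.5.3. The notes list 2 builds, GRCm38.p3 and mm9, so the files' build is not settled and no file coordinates are printed. The deposited TPM and mean normalized counts together gave whole reads per feature in 100% of values within 0.01, from which reads and depth were taken. Feature names marked as duplicates (474) may share reads.

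From TPM, log2(TPM + 1) was tested with limma 3.58.1 in R 4.3.3 over 6 group means with a trended spread, for 12303 features with TPM of at least 1 in 2 or more libraries, with 6 residual degrees of freedom and Benjamini-Hochberg adjustment at 0.05. It was tested on simulated data. No count model was run. The members and lists were chosen with earlier results of these data known. Named genes are the 3 members, the 5 features most like each and, per list and comparison, the 4 largest changes past 0.05; Csrnp1 and Fosb in the replicate gap, Egr3 in the chimeras, Fos in the steady state, Nr1d1, Hspa1a, Hspa1b, Maff, Fosl1 and Rxra were added after their values were seen. Alternatives changed the pseudocount (0.1), the filter, the scaling, the trend, the libraries in the fit and the replicate block.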

Additional observations from a re-analysis of the deposited data

Results flagged for a closer look

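The genotype effects of the 3 Nr4a genes had opposite signs in chimera alveolar and peritoneal cells: both DKO libraries were below both WT libraries in the first and above them in the second. The difference of the effects was -2.55 for Nr4a1, -1.41 for Nr4a2 and -1.66 for Nr4a3 on the log2(TPM + 1) scale. By limma over 12 libraries the adjusted p-values were 0.0706, 0.273 and 0.344, and over the 8 libraries of these groups 0.00863, 0.00448 and 0.00126. The Nr4a3 value is not counted as a pass, because Nr4a3 met the filter only through its alveolar libraries. Opposite non-overlapping groups of this kind were seen in 3.29% of features.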

How the results depend on the processing

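Of 15 member results with a test, under 8 alternatives, 119 of 119 pairs of result and alternative kept their direction and 102 also their side of the threshold. Nr4a3 in the peritoneum could not be fitted to the groups compared, since it did not pass the filter there. The calls that appeared were in the genotype comparisons. Fitted to the groups compared, the values -0.99, -0.53 and -0.87 in chimeras, 1.56 and 0.87 (Nr4a1 and Nr4a2) in the peritoneum, and -2.55, -1.41 and -1.66 for the difference of the effects had adjusted limma p-values under 0.05, as given above. Fitted to the 8 chimera and peritoneal libraries the same held for -0.53, -0.87, 1.56, 0.87, 0.79, -2.55, -1.41 and -1.66. Of these, 0.79 belongs to Nr4a3 in the peritoneum. Nr4a3 met the filter only through its alveolar libraries in this fit, over 12 libraries and in the fits below that left out a library. Its passing is therefore not counted as a call in the peritoneum, for the difference of the effects or between tissues. The 102 pairs above still include its results. Rescaling gave -2.71 for Nr4a1. The cause was not tested beyond the fits that left out a library. Without single libraries the values ran as follows: in chimeras from -1.05 to -0.93, -0.68 to -0.39 and -0.95 to -0.80, in the peritoneum 0.97 to 2.16, 0.69 to 1.05 and 0.57 to 1.01, for the difference -3.15 to -1.96, -1.59 to -1.22 and -1.88 to -1.44, for Nr4a1, Nr4a2 and Nr4a3 in turn. Each of these passed in 2 of the 12 such fits, those without a DKO steady-state library. In the steady state the values ran from -4.10 to -1.74, -3.45 to -1.0 and -5.56 to -2.16. Genes passing over all features ran from 1976 to 3835 in chimeras (3354 with all libraries, lowest without the DKO chimera replicate 1), 1209 to 3283 in the peritoneum (2813, lowest without the WT peritoneal replicate 2) and 1290 to 2584 for the difference (2096, lowest without the same library). Early genes higher in DKO ran from 11 to 23 in the peritoneum (lowest without the WT peritoneal replicate 2), 11 to 16 in chimeras and 2 to 6 in the steady state, and lower ones 0 to 3 in chimeras, 0 to 3 in the peritoneum and 20 to 31 in the steady state. Early genes lower in chimeras were 1 at a pseudocount of 0.1 or with no filter, 4 with the replicate block; in the peritoneum 2 and 3 were lower in the fits to the groups compared and to the 8 libraries; in the steady state 5 were higher after rescaling. Rescaling moved the median of all features in the steady state from -0.22 to 0.00 and the higher and lower counts from 1495 and 4842 to 2513 and 2206, in the peritoneum from 837 and 1976 to 1464 and 968, and for the difference from 1473 and 623 to 1052 and 1230. Replicate numbers are shared by the groups, and whether they pair the libraries is not given in the labels, also for the mixed chimeras; correlations of deviations were -0.043, 0.126 and -0.063, and the replicate block changed no member call (Nr4a1 in chimeras, -0.99, adjusted limma p = 0.209). Depth limits Nr4a3 in the peritoneum, with 3 to 28 reads per library.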
